A study of Rattus norvegicus with 6 samples.

Results

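Schwann cells are the glia of peripheral nerve, and the transcription regulators examined here are those by which their promyelinating, myelinating, immature and repair states are usually told apart. The 10 genes were taken by name: Sox10, Egr2, Pou3f1, Pou3f2, Nab1, Nab2, Jun, Sox2, Olig1 and Id2. Pou3f1 had no entry under this symbol and was not analysed here, and the other 9 were found among the 30957 genes of the mRNA table and passed the low-count filter, which left 15195 genes. RNA came from the sciatic nerve of Sprague-Dawley rats, aged 1 month by the study's methods, in 3 groups of 2 rats with 1 library each: control, 4 days after a crush of the left sciatic nerve (D4) and 7 days after it (D7). The labels call the control nerves normal, whereas the methods describe the same operation without the clamp. The labels name no transgene and no drug treatment for any group. Whole nerve was sequenced, so that every value is a sum over Schwann cells and all other cells of the nerve, and a lower value can mean fewer cells of a type or less RNA per cell, which cannot be told apart.

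Sox10 is an HMG-box factor needed throughout the Schwann cell lineage. In promyelinating cells it acts with the POU factors Pou3f1 and Pou3f2 to switch on Egr2 (Krox20), the zinc finger factor that drives the myelin genes together with Sox10, and Nab1 and Nab2 are corepressors that bind Egr proteins. Jun, Sox2 and Id2 are known as antagonists of the myelin program, and Jun is required for the repair state that Schwann cells adopt after injury, in which Olig1 is also known to be expressed.

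The mRNA counts numbered between 18727255 and 25350886 per library, and the log2 CPM values (counts scaled to a common library size with TMM factors) of both libraries of a group correlated between 0.973 and 0.987 across genes, which are not independent replicates. Prx (periaxin), a gene of myelinating Schwann cells, stood at 7330 and 5140 CPM in control a and b, at 35.7 and 36.9 at D4, and at 1320 and 827 at D7, so that a defining marker of the labelled tissue was present. The 12 macrophage markers were all upregulated at D4 and 10 of them at D7, against 11.2% and 9.83% of all tested genes. Their summed level was 605 to 667 CPM in control, 2500 to 2540 at D4 and 1740 to 2020 at D7. None of the 12 was at 0 in every library. Cell cycle markers rose as well, with 6 of 6 upregulated at each day, against the same shares of all tested genes. They summed to 45.2 to 82.2 CPM in control, 913 to 1060 at D4 and 604 to 650 at D7. Of the 7 endothelial markers tested, 4 were downregulated at D4 and 6 at D7, and of 9 fibroblast markers 1 and 3 were, against 10.7% and 9.02% of all tested genes. The summed endothelial level was 991 to 1640 CPM in control, 592 to 669 at D4 and 354 to 580 at D7, and the fibroblast level 56000 to 60600, 34100 to 37800 and 29400 to 32400 CPM. Of 9 Schwann cell markers, Sox10 among them, 1 rose and 4 fell by D4, while 2 rose and 2 fell by D7. The shares of all tested genes were 11.2% higher and 10.7% lower at D4, and 9.83% and 9.02% at D7. Summed adipocyte markers stood apart between libraries, at 1580 and 1250 CPM in control, 391 and 202 at D4 and 22.3 and 517 at D7, as did skeletal muscle markers, at 63.1 and 320 CPM in control and 53.9 to 156 in the injured nerves. Lymphocyte markers summed to 31.2 to 33.3 CPM in control, 88.8 to 99.0 at D4 and 99.7 to 101 at D7, and melanocyte markers, 2 of 6 at 0 in every library, to 52.4 to 57.6, 143 to 156 and 230 to 311 CPM. Markers of central glia and neurons summed to 31.2 and 23.9 CPM in control, 5.42 and 5.28 at D4 and 3.24 and 8.91 at D7. Of the 4 tested, 2 were downregulated at each day, against 10.7% and 9.02% of all tested genes. The part of these other cells in the values that follow was not tested.

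A gene was called a DEG when its adjusted p-value in edgeR's quasi-likelihood test was under 0.05 and its fold change was at least 2. In the control vs D4 comparison, 6 of the 9 regulators were DEGs, against 21.9% of all tested genes. Sox2, Jun and Pou3f2 were upregulated (background 11.2%), and Egr2, Nab1 and Id2 were downregulated (background 10.7%). In the control vs D7 comparison, 4 of 9 were DEGs, against 18.8% of all tested genes. The upregulated genes were again Sox2, Jun and Pou3f2 (background 9.83%), and Nab1 was downregulated (background 9.02%). When D7 was set against D4 itself, Id2 was the 1 DEG of the 9, higher at D7, against 2.18% of all tested genes (1.68% higher and 0.494% lower). An unadjusted p-value under 0.05 was found for 7 of the 9. The share of all tested genes at that looser threshold is not given here, so that this count has no background. Both comparisons with control use the same control libraries.

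**Figure D1:**
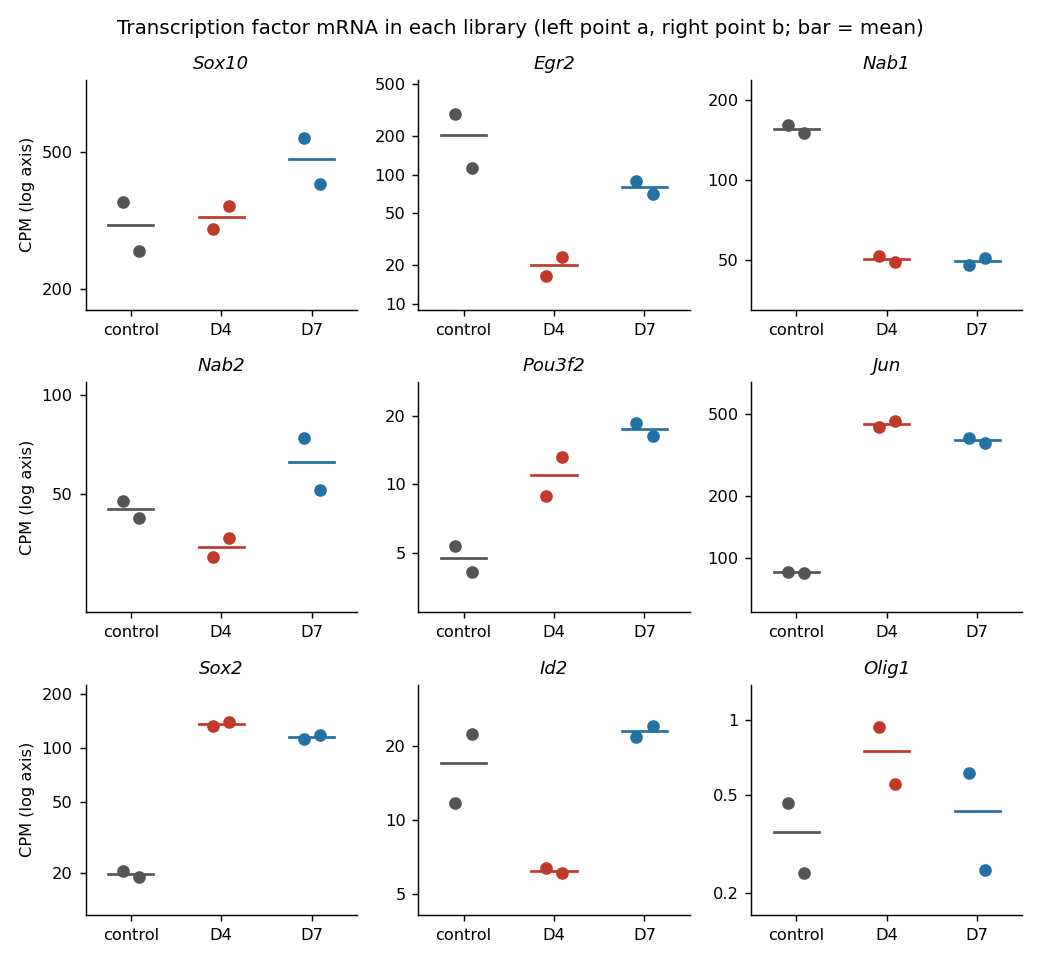
Level of each regulator in every library, in CPM on a log axis, with control in grey, D4 in red and D7 in blue. The left point of a pair is library a, the right point is library b and the bar is their mean. Jun and Sox2 lie far above control in all 4 injured libraries, Egr2 is lowest at D4, and the control libraries of Egr2 stand apart at 294 and 112 CPM.

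**Figure D2:**
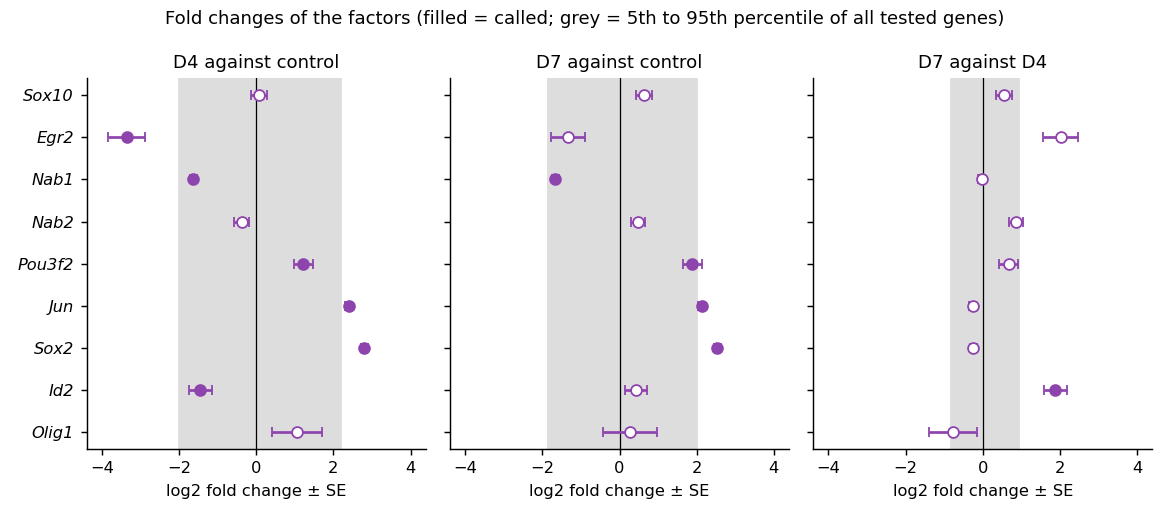
Log2 fold change of each regulator in 3 comparisons, with bars of 1 standard error. Filled points are DEGs, and the grey band runs from the 5th to the 95th percentile of all 15195 tested genes. At D4, Sox2 (2.80), Jun (2.40) and Egr2 (−3.36) lie outside the band.

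Sox10, on chromosome 7 from 120393254 to 120403523 (Rnor_6.0), was measured at 357 and 257 CPM in control, at 298 and 347 CPM at D4 and at 546 and 403 CPM at D7. The D4 range lay within the control range, and both D7 libraries were above both control libraries. The log2 fold change was 0.07 at D4 (standard error 0.21, adjusted p = 0.81) and 0.63 at D7 (standard error 0.21, adjusted p = 0.0618), and neither passed the threshold.

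Egr2, on chromosome 20 from 22454463 to 22459025, had the largest change in size among the 9 at D4, though not at D7 against control. Its level was 294 and 112 CPM in control, 16.5 and 23.0 CPM at D4 and 89.7 and 70.3 CPM at D7. Every D4 library lay below every other library, and the D7 libraries lay between the D4 and the control libraries without overlap. Egr2 fell 10.3-fold at D4 (log2 fold change −3.36, standard error 0.48, adjusted p = 0.00258). At D7 its log2 fold change was −1.34 (standard error 0.44, adjusted p = 0.0562), which did not pass the threshold. The direct D7 vs D4 difference was 2.02 (standard error 0.46, adjusted p = 0.0652).

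Control a held 2.62 times the Egr2 of control b. It also held more of the myelin transcripts, 1.43 times for Prx and 1.65 times for Mbp, while Egr1 was at 0.53 times and Egr3 at 0.511 times the level of control b. Other early response genes did not share the lower level of Egr1 and Egr3. Atf3 was at 1.91, Fos at 1.7, Fosb at 1.36, Jun at 1.02 and Junb at 0.928 times the level of control b. Without control a the Egr2 log2 fold change was −2.51 at D4 and −0.49 at D7, and without control b it was −3.90 at D4 and −1.88 at D7, the last with an adjusted p of 0.00429 and so a DEG. The size of the Egr2 difference at D7 therefore rests on which control library is kept, whereas the D4 fall was a DEG in either case.

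Of the corepressor genes, Nab1 was downregulated at both days and Nab2 passed the threshold at neither. Nab1, on chromosome 9 from 53906073 to 53945473, stood at 162 and 150 CPM in control, 51.5 and 49.2 CPM at D4 and 47.8 and 51.0 CPM at D7. The injured libraries of both days were alike, and all 4 lay below the control libraries. Nab1 was downregulated 3.10-fold at D4 (log2 fold change −1.63, standard error 0.094, adjusted p = 0.000165) and 3.17-fold at D7 (log2 fold change −1.66, standard error 0.095, adjusted p = 0.000332), and the D7 vs D4 difference was −0.03. Nab2, on chromosome 7 from 70961575 to 70969905, measured 47.6 and 42.3 CPM in control, 32.3 and 36.7 CPM at D4 and 73.9 and 51.4 CPM at D7. Its D4 libraries were the lowest and its D7 libraries the highest, without overlap. Nab2 was not a DEG in any comparison (log2 fold change −0.38 at D4, 0.48 at D7 and 0.86 for D7 vs D4, the last with standard error 0.19 and adjusted p = 0.0607). Without library D7 b the D7 vs D4 difference of Nab2 was 1.10 (adjusted p = 0.0259) and passed the threshold.

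The promoter table of RefSeq (build GRCr8) held entries for Egr2, Pou3f2, Nab1, Nab2, Sox2 and Id2, 6 of the 10 genes. The 250 bases before the start site are shown for Egr2 and Nab1, which fell at D4, for the other corepressor gene Nab2, and for Sox2, which rose. Capitals mark exact matches, on either strand, to motifs of the factor families at hand: the EGR element GCGTGGGCG or GCGGGGGCG, the AP-1 element TGACTCA, the cAMP response element TGACGTCA, the octamer ATGCAAAT bound by POU factors, the SOX elements ACAAAG and AACAAT, the E-box CACGTG and the CArG box. The windows lie at chr20:21054442-21054691 (Egr2, minus strand), chr9:56545392-56545641 (Nab1, plus strand), chr7:65389256-65389505 (Nab2, minus strand) and chr2:119464881-119465130 (Sox2, plus strand).
Egr2: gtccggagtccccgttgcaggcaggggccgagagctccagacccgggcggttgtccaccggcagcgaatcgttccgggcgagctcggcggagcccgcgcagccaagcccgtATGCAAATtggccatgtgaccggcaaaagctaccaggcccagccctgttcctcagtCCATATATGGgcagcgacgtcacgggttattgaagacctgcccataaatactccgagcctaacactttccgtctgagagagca
Nab1: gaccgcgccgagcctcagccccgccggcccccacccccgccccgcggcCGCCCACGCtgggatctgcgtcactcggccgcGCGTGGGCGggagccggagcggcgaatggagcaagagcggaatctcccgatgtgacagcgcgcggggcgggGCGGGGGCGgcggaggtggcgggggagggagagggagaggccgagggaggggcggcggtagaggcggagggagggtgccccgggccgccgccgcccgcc
Nab2: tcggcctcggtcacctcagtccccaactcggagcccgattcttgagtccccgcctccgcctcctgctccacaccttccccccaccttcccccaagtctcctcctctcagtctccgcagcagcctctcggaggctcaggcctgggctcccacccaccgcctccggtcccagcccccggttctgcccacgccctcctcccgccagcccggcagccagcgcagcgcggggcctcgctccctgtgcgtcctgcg
Sox2: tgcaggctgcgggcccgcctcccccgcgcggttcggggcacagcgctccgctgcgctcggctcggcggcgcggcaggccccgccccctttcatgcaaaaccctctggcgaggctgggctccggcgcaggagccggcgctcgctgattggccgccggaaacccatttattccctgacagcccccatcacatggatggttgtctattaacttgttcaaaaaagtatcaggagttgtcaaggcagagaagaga

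Positions are counted back from the start site, whose preceding base is −1. The Nab1 window held GCGTGGGCG from −202 to −194 and from −170 to −162, the first of them on the opposite strand, and GCGGGGGCG from −99 to −91. Of the 33469 promoter windows of the same length, 0.478% held GCGTGGGCG and 2.45% held GCGGGGGCG. The Nab1 window has a GC content of 81.2%, against a median of 51.2% for all windows, so that GC-rich motifs are likelier in it. The Egr2 window held the octamer from −139 to −132, a match found in 1.56% of windows, and a CArG box from −83 to −74, found in 1.5%. No match to these motifs lay in the Nab2, Sox2, Pou3f2 and Id2 windows. Among all windows, TGACTCA was present in 4.05%, TGACGTCA in 1.59%, ACAAAG in 16.3%, AACAAT in 10.3% and CACGTG in 5.59%. A match of letters is a description of the window and not a measured site.

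Pou3f2 (Brn2), on chromosome 5 from 36681528 to 36683356, is a POU factor that overlaps in function with Pou3f1 in the promyelinating stage. It was a low transcript, with 5.36 and 4.10 CPM in control, 8.87 and 13.2 CPM at D4 and 18.7 and 16.4 CPM at D7. The groups followed each other in the order control, D4 and D7 without overlap. Pou3f2 rose 2.32-fold at D4 (log2 fold change 1.22, standard error 0.25, adjusted p = 0.0106) and 3.71-fold at D7 (log2 fold change 1.89, standard error 0.25, adjusted p = 0.00283). The step from D4 to D7 was 0.67 (standard error 0.24, adjusted p = 0.155) and did not pass the threshold. The D4 call was lost without library D4 b, when the log2 fold change was 0.90 (adjusted p = 0.0588).

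Jun, on chromosome 5 from 114011189 to 114014277, encodes the AP-1 subunit c-Jun. It was measured at 86.0 and 84.4 CPM in control, 434 and 462 CPM at D4 and 383 and 364 CPM at D7. All 4 injured libraries lay far above the control libraries, and the D7 libraries lay below the D4 libraries. Jun rose 5.26-fold at D4 (log2 fold change 2.40, standard error 0.094, adjusted p = 0.000114) and 4.39-fold at D7 (log2 fold change 2.13, standard error 0.093, adjusted p = 0.000217). The D7 vs D4 difference was −0.26 (standard error 0.089, adjusted p = 0.144).

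Sox2, an HMG-box factor of immature Schwann cells on chromosome 2 from 121165137 to 121167545, had the largest rise of the 9 in both comparisons with control. Its level was 20.6 and 18.9 CPM in control, 134 and 140 CPM at D4 and 113 and 118 CPM at D7. As with Jun, the injured libraries stood far above control, with the D7 libraries below the D4 libraries. Sox2 rose 6.94-fold at D4 (log2 fold change 2.80, standard error 0.097, adjusted p = 0.000112) and 5.84-fold at D7 (log2 fold change 2.54, standard error 0.096, adjusted p = 0.000174). The D7 vs D4 difference was −0.25 (standard error 0.089, adjusted p = 0.158). A log2 fold change at D4 below that of Sox2 was found for 96.6% of the tested genes, and below that of Jun for 95.6%. The libraries of a group differed by at most 1.09-fold for Sox2 and 1.06-fold for Jun.

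Id2 encodes a helix-loop-helix protein that lacks a DNA-binding region and holds basic helix-loop-helix factors inactive. The gene, on chromosome 6 from 44348501 to 44363915, was measured at 11.7 and 22.4 CPM in control, 6.36 and 6.06 CPM at D4 and 21.8 and 24.0 CPM at D7. Both D4 libraries were below all others, and the D7 libraries overlapped the range of the control libraries, which differed 1.91-fold. Id2 fell 2.74-fold at D4 (log2 fold change −1.45, standard error 0.30, adjusted p = 0.0107) and was 3.69-fold higher at D7 than at D4 (log2 fold change 1.88, standard error 0.30, adjusted p = 0.0322). Against control, the D7 log2 fold change was 0.43 (standard error 0.29, adjusted p = 0.282), and it was 0.03 without control a and 0.96 (adjusted p = 0.012) without control b, still under the fold threshold. The D4 call rested on single libraries. Without control b the log2 fold change was −0.92, under the fold threshold, and without D4 a or D4 b it was −1.49 and −1.42 with adjusted p-values of 0.062 and 0.0703. The D7 vs D4 call was likewise lost without D4 a (adjusted p = 0.228), D4 b (0.218), D7 a (0.132) or D7 b (0.0643), while the log2 fold change stayed between 1.81 and 1.94.

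Olig1, a basic helix-loop-helix factor best known from oligodendrocytes, lies on chromosome 11 from 31428358 to 31430517. It was close to the detection limit, with 9 and 4 counts in control, 23 and 15 at D4 and 13 and 5 at D7. The D4 libraries were above the control libraries, and the D7 libraries overlapped with them. At D4 the log2 fold change was 1.05 with a standard error of 0.65 (adjusted p = 0.233), and at D7 it was 0.27 with a standard error of 0.69 (adjusted p = 0.784). Both libraries of a group differed 1.70- to 2.47-fold, and with these counts and 2 libraries a group no difference of Olig1 passed the threshold.

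Levels of different genes were compared as FPKM, which divides by transcript length. In control nerve Sox10 was the most abundant of the 9 with 88.6 ± 19.0 FPKM (SD, n = 2), followed by Egr2 with 54.6 ± 33.7, Nab1 with 30.2 ± 1.06 and Jun with 24.1 ± 0.141 FPKM. The ranges of Sox10 and Egr2 overlapped, and so did those of Egr2 and Nab1. Id2 (7.86 ± 3.59), Sox2 (7.43 ± 0.311) and Nab2 (7.4 ± 0.495 FPKM) did not differ beyond their spread, and Pou3f2 (2.26 ± 0.389) and Olig1 (0.142 ± 0.0610 FPKM) came last. At D4 the order was changed. Jun led with 155 ± 7.07 FPKM, above Sox10 with 114 ± 12.0 and Sox2 with 63.1 ± 1.98, and Egr2 was sixth with 6.52 ± 1.53 FPKM, within the spread of Nab2 (6.94 ± 0.629) and Pou3f2 (6.42 ± 1.77). At D7 Sox10 was first again with 168 ± 33.9 FPKM, above Jun with 130 ± 3.54 and Sox2 with 53.2 ± 1.91, and Egr2 had moved to the fourth place with 26.5 ± 4.24 FPKM.

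When counts were set against Sox10 in the same library, Egr2 amounted to 82.2 and 43.6 counts per 100 Sox10 counts in control, to 5.52 and 6.64 at D4 and to 16.4 and 17.4 at D7. The D7 libraries agreed closely on this scale, and all injured libraries remained below control. Jun moved from 24.1 and 32.8 per 100 Sox10 counts in control to 146 and 133 at D4 and 70.2 and 90.2 at D7. For Sox2 the values were 5.77 and 7.35 in control, 45.1 and 40.4 at D4 and 20.7 and 29.2 at D7. On this scale Jun and Sox2 were lower at D7 than at D4 by a wider margin than in CPM, since Sox10 itself stood higher at D7. Nab1 went from 45.4 and 58.4 to 17.3 and 14.2 at D4 and to 8.74 and 12.6 at D7. Nab2 lay between 10.6 and 16.4 per 100 Sox10 counts in all 6 libraries. These ratios rest on 1 reference gene and carry no test.

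**Figure D3:**
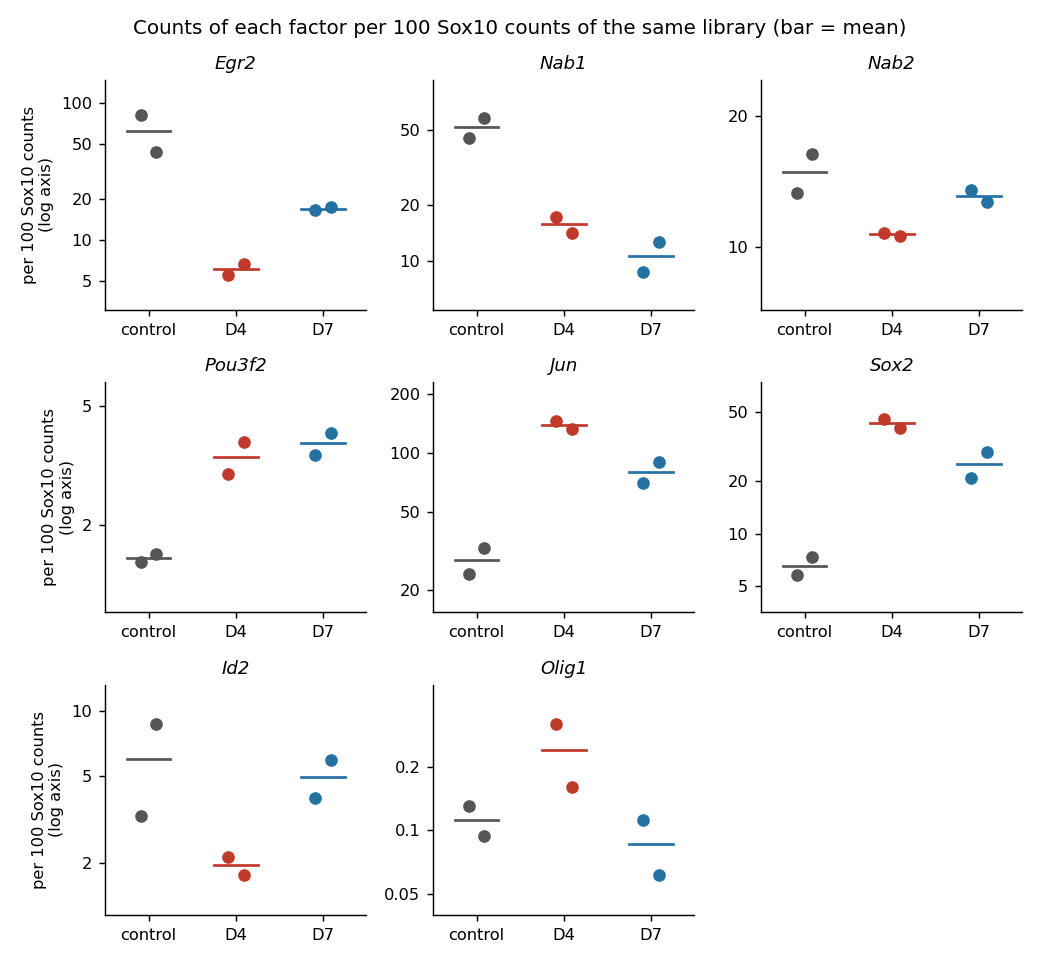
Counts of the other 8 regulators per 100 Sox10 counts of the same library, on a log axis, with bars at the means. Jun exceeded Sox10 in both D4 libraries, at 146 and 133 per 100, and the 2 D7 libraries of Egr2 nearly coincide at 16.4 and 17.4 per 100.

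The genes whose profiles were nearest to each regulator were found by the distance between centred log2 CPM values over the 6 libraries, among 13781 genes with a mean of at least 1 CPM. Nearest to Egr2 was Nipal1, with 42.5 and 21.6 CPM in control, 3.7 and 3.2 at D4 and 14.5 and 11.9 at D7 (distance 0.59 on the log2 scale), followed by Kcnh8 and Epb42. Mllt11, Slc7a2 and Tfb1m were nearest to Nab1, at distances of 0.124 to 0.144. For Pou3f2 the nearest gene was Msi1, an RNA-binding protein of neural progenitors, at a distance of 0.176, with log2 fold changes of 1.21 at D4 and 1.93 at D7. The nearest genes to Jun were Limd2, LOC498435 and Lyz2, the last a lysozyme gene of macrophages and among the macrophage markers, and those to Sox2 were Bin2, Basp1 and Gng4. Sox10 was most like Vash1, Pcbp4 and Fam173a, and Nab2 was most like Cep97, Depdc7 and Mical1. For Id2 they were AABR07002337.1, Mamdc2 and Nkd1, at 0.56 or more, and for Olig1 Gyltl1b, Hsh2d and Cldn14, at 0.51 or more. With 6 libraries in 3 groups, many genes share such a profile, and the distances are a description.

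The lncRNA table listed 12 transcripts that overlapped 1 of the 9 genes or lay within 10 kb of it, near 6 of them, and 11 were tested. At D4, 2 of the 11 passed the threshold, both lower, against 10.1% of all 14077 tested lncRNAs (5.19% higher and 4.87% lower). At D7 4 of the 11 did, 2 higher and 2 lower, against 5.79% (3% higher and 2.79% lower). Between D7 and D4 0 of the 11 passed in edgeR's test, against 0.249% of all tested lncRNAs (0.142% higher and 0.107% lower). In DESeq2 3 of the 11 passed, and 4 had an unadjusted p-value under 0.05. The shares of all lncRNAs for these last 2 counts are not given here. At the Sox2 locus, NONRATT015220.2 (chromosome 2 from 121153325 to 121193232) spans the whole Sox2 gene. It held 508 and 315 counts in control, 48 and 31 at D4 and 101 and 112 at D7. These levels ran opposite to those of Sox2, with every injured library below control. The log2 fold change was −3.51 at D4 (standard error 0.37, adjusted p = 0.0065) and −2.03 at D7 (standard error 0.34, adjusted p = 0.0322). A longer transcript over the same gene, NONRATT015219.2, had log2 fold changes of −0.41 at D4 and −0.75 at D7. NONRATT015221.2, whose span lies 786 bases from Sox2, had −0.55 and −0.11. None of these values passed the threshold. Without control b the D7 value of NONRATT015219.2 was −1.03 (adjusted p = 0.0449), which passed it.

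**Figure D4:**
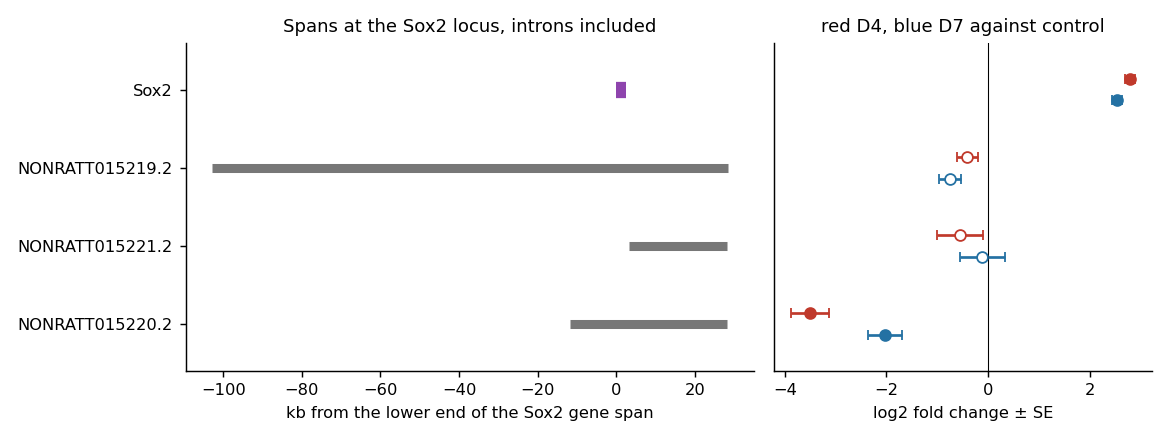
Spans of Sox2 and of the 3 lncRNA transcripts within 10 kb of it, in kb from the lower end of the Sox2 gene span (left, introns included), and their log2 fold changes against control with bars of 1 standard error (right, D4 in red and D7 in blue, filled where past the threshold). Sox2 was upregulated at both days, and NONRATT015220.2 was downregulated, with log2 fold changes of −3.51 at D4 and −2.03 at D7.

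Beside Egr2, NONRATT017352.2 (chromosome 20 from 22450246 to 22452491) lies 1972 bases from the gene span. It had 3342 and 2772 counts in control, 1033 and 1126 at D4 and 1397 and 1067 at D7, and its control libraries were closer to each other than those of Egr2. Its log2 fold change was −1.66 at D4 (standard error 0.16, adjusted p = 0.00552) and −1.41 at D7 (standard error 0.16, adjusted p = 0.0121). NONRATT026107.2, whose span lies 762 bases from Sox10, held 84 and 85 counts in control, 132 and 154 at D4 and 434 and 292 at D7, with a log2 fold change of 2.00 at D7 (standard error 0.25, adjusted p = 0.0145). NONRATT023106.2, 1369 bases from Pou3f2, followed the order of Pou3f2 with 84 and 124 counts in control, 166 and 263 at D4 and 405 and 366 at D7 (log2 fold change 1.78 at D7, standard error 0.31, adjusted p = 0.0354). NONRATT022147.2, 1212 bases from Pou3f2 on its other side, did not follow it, with 140 and 107, 50 and 81, and 172 and 117 counts. Its D4 log2 fold change was −1.08 (standard error 0.31, adjusted p = 0.0834), not past the threshold in edgeR's test. With DESeq2 the D4 value was −1.12 (adjusted p = 0.0223), which passed.

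The lncRNA calls were less firm than those of the genes. When any 1 of the 6 libraries was left out, 1 of the 4 D7 calls remained, which was NONRATT026107.2 without D7 b and NONRATT017352.2 otherwise, with adjusted p-values of up to 0.171 for NONRATT015220.2, 0.157 for NONRATT023106.2 and 0.071 for NONRATT026107.2. For NONRATT017352.2 they were up to 0.0526 at D4 and 0.0514 at D7. At D4 NONRATT015220.2 stayed past the threshold with DESeq2, with the replicate letter as a block and without any 1 library, with adjusted p-values of up to 0.0455. How fragments were assigned where a lncRNA overlaps Sox2 or Nab2, and whether the counting used the strand, is not given in the sources used here.

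Genes related to the regulators were counted in 4 lists. Of 22 myelin-related genes described as targets of Egr2 and Sox10, 18 were downregulated and 1 upregulated at D4, against 10.7% and 11.2% of all tested genes. Their median log2 fold change was −3.54, against −0.04 for all tested genes. At D7 15 were downregulated and 1 upregulated, against 9.02% and 9.83% of all tested genes (median −2.34 against 0.01). Prx (periaxin) fell from 142386 and 85182 counts to 869 and 999 at D4, which is −7.42 on the log2 scale, and Mag, the myelin-associated glycoprotein gene, fell by 6.72. The upregulated gene was Erbb3, the neuregulin receptor subunit of Schwann cells, 1.13 higher at D4 on the log2 scale, and this call was lost without control b. Egr2 itself was higher in both D7 libraries than in the D4 libraries without passing the threshold, and a link to its targets was not tested. In the direct D7 vs D4 comparison, 11 of the 22 were higher at D7, against 1.68% of all tested genes, with a median of 1.11. In edgeR's test 0 were lower, against 0.494%, and 0 were lower in DESeq2 or at an unadjusted p-value under 0.05. All 11 of these calls were lost without D4 a or D4 b, when no gene of the whole table passed the threshold.

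Of 20 genes described as raised with Jun in repair or immature Schwann cells, 13 were upregulated and 2 downregulated at D4 (median 2.40), against 11.2% and 10.7% of all tested genes, so that the lower count is at the background. Of the same 20, 12 were upregulated at D7 (median 1.63, background 9.83%), when 0 were downregulated with edgeR or DESeq2 and 2 were lower at an unadjusted p-value under 0.05, and 1 was called lower without control a. Gdnf, a neurotrophic factor, went from 3 and 2 counts in control to 504 and 722 at D4 and 103 and 98 at D7. Fgf5 rose from 1 and 6 counts to 624 and 934 at D4. The downregulated genes were the adhesion molecules Ncam1 (log2 fold change −1.23) and Cdh2 (−1.21), and without TMM scaling neither of these calls remained. In the D7 vs D4 comparison 4 of the 20 were lower, against 0.494% of all tested genes. None was higher in edgeR's test, against 1.68%, or in DESeq2, and 3 were higher at an unadjusted p-value under 0.05. The count of lower genes was 1 without D7 a and 0 without D4 a or D4 b, and without D7 b 2 genes were called higher.

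Among 9 tested gene family relatives of the regulators, 3 were upregulated at D4, namely Junb (log2 fold change 1.78), Id3 (1.07) and Jund (1.04), and 3 at D7, against 11.2% and 9.83% of all tested genes. With edgeR or DESeq2, 0 were downregulated at either day, and 1 was lower at an unadjusted p-value under 0.05 at each. Without control a 1 was called lower at each day, as was 1 at D4 without D4 b. Egr3, a paralog of Egr2 and also an Egr factor bound by Nab proteins, had 64 and 107 counts in control, 160 and 265 at D4 and 658 and 479 at D7. Its D4 log2 fold change was 0.76 (adjusted p = 0.136), and at D7 it rose by 2.49, while the D7 log2 fold change of Egr2 was −1.34. Of 37 other regulators of the Schwann lineage, 5 rose and 5 fell by D4, shares close to the 11.2% and 10.7% of all tested genes, while by D7 7 rose and 4 fell, against 9.83% and 9.02%. Runx2 rose from 146 and 159 counts to 6092 and 7574 at D4, and Hmga2 from 0 and 0 to 315 and 321. Srebf2, a regulator of cholesterol synthesis, fell by 1.63 on the log2 scale. Without TMM scaling, 9 of the 37 rose and 3 fell by D4, and 1 fell by D7. Without D4 b 3 fell by D4, and without control b 2 fell by D7.

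**Figure D5:**
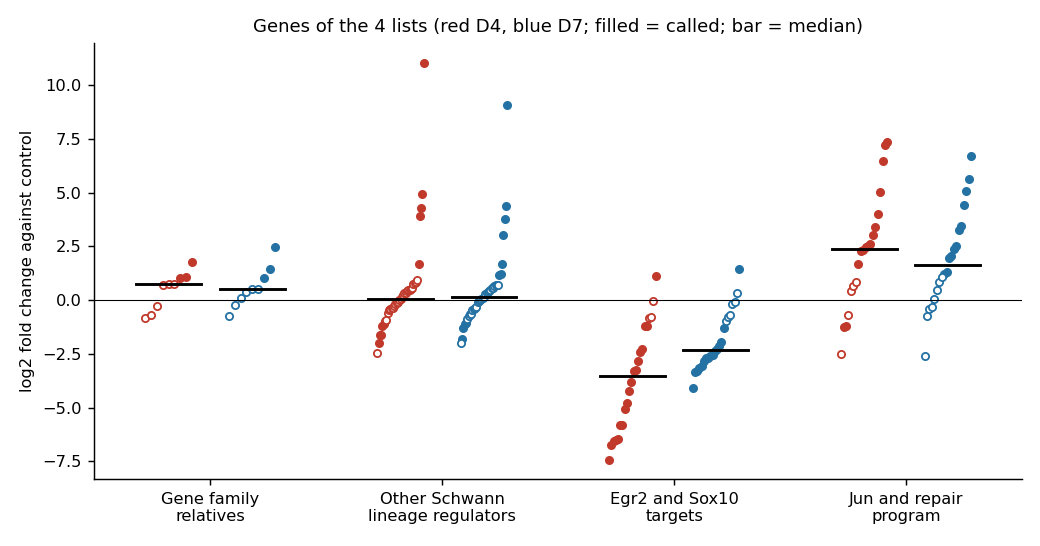
Log2 fold change against control of the tested genes in each of the 4 lists, at D4 (red) and D7 (blue), with filled points past the threshold and a black bar at the median. The median of the Egr2 and Sox10 targets is −3.54 at D4 and −2.34 at D7, that of the Jun and repair genes 2.40 and 1.63. The uppermost point is Hmga2, with 0 counts in both control libraries, so that its height depends on the prior count of the fit.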

How the data were processed

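Sciatic nerve RNA of 6 rats was sequenced, 1 library per rat, after removal of ribosomal RNA. The authors mapped the reads to the rat genome (Rnor_6.0) with Hisat2 2.0.4, assembled them with Stringtie 1.3.0 and deposited whole-number fragment counts per gene and per lncRNA transcript, without normalization. The deposited FPKM values of the mRNAs were used only for the order of levels.

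Counts were analysed with edgeR 4.0.16 in R 4.3.3: filterByExpr, TMM factors (0.863 to 1.08) and the quasi-likelihood test in 1 fit of all 6 libraries, with Benjamini-Hochberg adjustment over all features. The study names edgeR and both thresholds, not the function. Standard errors were derived from the F statistic (size of the log2 fold change over its root). lncRNAs were fitted separately. The fit was tested on simulated data. The groups came from the treatment labels, and the letters a and b are different rats.

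The genes, lists and tests were chosen with earlier results of these data known. The 9 genes were named whatever their values, as were the 3 genes of nearest profile, the lncRNAs within 10 kb, and up to 2 risers and 2 fallers of each list, of which 1 is not reported here. Egr3, Mbp and Egr1 were named after their values were seen. Atf3, Fos, Fosb and Jund also lay outside these choices. Alternatives were DESeq2 1.42.0, edgeR's exact test, other scalings, filters and thresholds, fits of the compared groups only, the library letter as a block, and leaving out each library. Precision rests on 2 rats a group.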

Additional observations from a re-analysis of the deposited data

Results flagged for a closer look

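The effect of the crush on Id2 differed between the days. Its log2 fold change against control was −1.45 at D4 and 0.43 at D7 (0.03 without control a and 0.96 without control b), and the direct D7 vs D4 difference of 1.88 passed the threshold in edgeR's quasi-likelihood test with an adjusted p of 0.0322, with both D7 libraries (21.8 and 24.0 CPM) above both D4 libraries (6.36 and 6.06 CPM). The call was lost when either library of D4 or of D7 was left out. With 2 libraries a group, no sample could be judged an outlier.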

How the results depend on the processing

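Of 455 recomputed log2 fold changes of the 9 regulators, 424 kept their direction and their side of the threshold, and the 6 changes of sign were among values near 0 when a library was left out: Sox10 at D4 ran from −0.15 to 0.32, Olig1 at D7 from −0.49 to 0.82 and Nab1 for D7 vs D4 from −0.08 to 0.01. Regulators called numbered 4 to 6 at D4, 4 to 5 at D7 and 0 to 2 for D7 vs D4 when a library was left out. For D7 vs D4, where Id2 was called, 2 were called with DESeq2, with the exact test, without the filter or with only the compared groups, and 0 at an adjusted p under 0.01 or when the 2-fold change itself was tested, always as rises. The second was Egr2. At D7, 2 regulators instead of 1 were downregulated with DESeq2, the exact test or no filter, again with Egr2 added, and 1 to 2 when a library was left out.
The number of DEGs among all genes was 3333 at D4 (6715 with no fold threshold, 1683 when the 2-fold change itself was tested), 2863 at D7 (5705 and 1217) and 331 for D7 vs D4 (710 and 37, and 521 with DESeq2, 637 with the exact test, 8 at an adjusted p under 0.01, and 0 to 469 when a library was left out). Without TMM factors 69.3% of the DEGs at D4 were upregulated, against 51.2% with them, and 70.4% against 52.1% at D7, and the median over the tested genes moved to 0.25 and 0.31. No regulator changed sign or call under this scaling.
Of the lncRNAs near the regulators, 2 were called at D4 and 4 at D7. These counts were 1 to 2 at both days when a library was left out, and 1 at each day for transcripts that overlap a gene. With the library letter as a replicate block, 2 were called at D7, and no call of a regulator changed. The correlations of same-letter deviations between groups were 0.01, 0.19 and −0.13. With 2 libraries a group, they cannot tell whether libraries of the same letter share a batch. Uncalled lncRNAs changed sign when a library was left out: NONRATT015221.2 at D7 (−0.40 to 0.13), NONRATT022147.2 at D7 (−0.16 to 0.38), NONRATT026106.2 at D4 (−0.86 to 0.24) and D7 (−1.55 to 0.09), and NONRATT026845.2 at D4 (−0.76 to 0.95) and D7 (−0.28 to 1.09). The causes were not tested. FPKM could not be rebuilt from a length, since the mRNA table as used gives none, and the alternative for tables without counts did not apply.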
